A study of Mus musculus with 105 samples.

Results

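Otx2, Fgf5, Pou3f1, Zic2, Sox3 and Zic5 are genes of the formative and epiblast state, the stage that mouse embryonic stem cells (mESCs) pass through after naive pluripotency. They were taken by name as a set of 6 of the 52016 genes in the bulk count tables, and all 6 were also present among the 34120 genes of the single-cell table of unique molecular identifier (UMI) counts. All 6 passed the filter on low counts in both bulk tables. Their levels were followed in differentiating female mESCs on days 0, 1, 2, 3 and 4, together with the number of the 6 genes found in single cells.

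TX1072 is a female F1 hybrid mESC line with 1 X chromosome from the C57BL/6 (B6) strain and 1 from CAST/EiJ (Cast). In this line the promoter of the B6 copy of Xist responds to doxycycline, and Rosa26 holds the rtTA activator. Day 0 cells were grown in serum with 2i and LIF, and days 1 to 4 count from the withdrawal of 2i and LIF in serum medium on fibronectin. TXdXicB6 and TXdXicCast were derived from TX1072 and lack the X inactivation center (Xic) on the B6 or the Cast X chromosome, and each of these genotypes is represented by 1 clone. Bulk RNA was sequenced from 3 replicates per line and day, which gave 15 TX1072 libraries and 30 libraries of the 2 deletion clones, and single cells were captured from 1 TX1072 culture per day, the population of bulk replicate 1. The bulk libraries held between 19827011 and 39628784 counted reads in TX1072 and between 16906263 and 57920260 in the deletion clones. The 2 bulk tables came from different library kits and sequencers and were normalized separately, so that the line and the kit cannot be told apart when values of TX1072 are set beside those of the deletion clones. The RNA of the TXdXicCast day 0 samples was degraded and was fragmented more mildly, which touches each value of that group. The 1472 retained cells numbered 277, 325, 341, 257 and 272 on days 0 to 4, with a median of 124651 to 171158 UMIs per cell and day and at least 43060 UMIs in each. The labels list an additional sequencing run, named RapidRun, for the single cells of day 1 and of no other day. In the cells, day 1 and this added run cannot be told apart.

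When mESCs leave naive pluripotency, they lose the naive transcription factors and pass through a formative state that resembles the early post-implantation epiblast before lineage genes are induced. OTX2 is a homeodomain factor of this transition that works together with the POU factor OCT4 at formative enhancers, and POU3F1 (OCT6) and SOX3 are a POU factor and a SOXB1 factor of the epiblast and the early neural plate. ZIC2 and ZIC5 are zinc finger factors of the epiblast and neural plate, and FGF5 is a secreted ligand of FGF receptors whose gene is the classical marker of the early post-implantation epiblast.

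In the GRCm38 build, Otx2 lies on the minus strand at chr14:48657677-48673819 and Fgf5 on the plus strand at chr5:98254184-98277030. Pou3f1 (chr4:124656807-124660655, plus strand) and Sox3 (chrX:60891366-60893430, minus strand) each consist of a single exon. Zic2 (chr14:122475435-122479852, plus strand) and Zic5 (chr14:122456795-122465677, minus strand) are arranged head to head, with 9757 bases between their annotated starts. The noncoding gene Otx2os1 overlaps 5112 bases of Otx2 and had a mean of at most 0.77 counts-per-million (CPM) in every group. The strand setting of the counting is not given in the sources used here. Sox3 lies 42.3 Mb from the start of the region deleted in TXdXicB6.

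RefSeq promoters (GRCm38.p6, 250 bases before to 50 after the start) were held for Fgf5, Zic5 and 4 starts of Otx2. The promoter of Fgf5, the gene with the largest change, and that of the Otx2 start that holds a GGATTA, the core motif bound by OTX2-type homeodomains, are shown 5′ to 3′ on the strand of the gene, with the motif matches in capitals. Fgf5 spans chr5:98253934-98254233 on the plus strand and Otx2 spans chr14:48665060-48665359 on the minus strand.
Fgf5: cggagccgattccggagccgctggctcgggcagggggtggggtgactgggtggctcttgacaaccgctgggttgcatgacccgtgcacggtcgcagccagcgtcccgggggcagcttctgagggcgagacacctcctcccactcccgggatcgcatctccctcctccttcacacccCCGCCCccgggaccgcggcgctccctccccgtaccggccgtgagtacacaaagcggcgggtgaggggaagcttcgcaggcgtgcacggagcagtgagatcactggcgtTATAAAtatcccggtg
Otx2: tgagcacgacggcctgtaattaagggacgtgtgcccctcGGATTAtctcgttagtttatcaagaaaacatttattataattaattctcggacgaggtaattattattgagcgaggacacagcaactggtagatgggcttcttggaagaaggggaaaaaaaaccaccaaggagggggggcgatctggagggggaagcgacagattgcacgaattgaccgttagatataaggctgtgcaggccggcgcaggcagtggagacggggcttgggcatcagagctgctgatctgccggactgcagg
GGATTA was searched on both strands and stood at position -211 from the Otx2 start shown. It was in none of the other windows of these genes and in 7.06% of the 32851 promoters of the same length. The octamer ATTTGCAT of POU factors (1.74% of all promoters) was in none of the windows. A GC box, GGGCGG (35.7% of all promoters), stood at -74 of Fgf5 on the opposite strand and at 41 of Zic5, and TATAAA (13.6%) at 35 of Fgf5, after the start, and at -192 of another Otx2 start. The Fgf5 window held 68.3% G and C and the Otx2 window 51%, against a mean of 53.8% over all promoters.

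The first question was when each gene rose and whether it came down again by day 4. The 6 genes followed different time courses in TX1072. Otx2 was close to its highest level after 1 day, Pou3f1 and Sox3 had their highest means on day 3, Zic2 and Zic5 had their highest means on days 2 and 3, and Fgf5 rose on each of the first 3 days and had its highest mean on day 4. From day 0 to day 1, 4 of the 6 genes rose and 1 fell, where 23.5% of the 18871 genes tested rose and 23.4% fell (edgeR quasi-likelihood test, Benjamini-Hochberg adjusted p under 0.05). Over the next day 5 of 6 rose and 0 fell (20.3% and 18.9% of all genes), and between days 2 and 3 Fgf5 rose and Otx2 fell (13.8% and 12.9%), where Otx2 did not pass without replicate 1 or 3 (adjusted p = 0.0743 and 0.0952). The last day had 0 that rose and 4 that fell (16.0% and 11.9%), of which Otx2 did not pass without replicate 2 or 3 (adjusted p = 0.200 and 0.386) nor Zic5 without replicate 2 (adjusted p = 0.0578). Day 4 against day 0 gave 4 that rose and 0 that fell (30.2% and 29.4%). Between days 2 and 4, 1 rose and 4 fell, against 26.3% and 23.5% of all genes, and of these 4 Pou3f1 did not pass without replicate 1 (adjusted p = 0.092).

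Otx2 came close to its own highest level on day 1. Its TX1072 levels were 23.4, 31.4 and 25.0 CPM in the 3 day 0 libraries and 138, 115 and 116 CPM on day 1. On day 2 they were 155, 118 and 132 CPM. The day 1 and day 2 libraries overlapped and all lay above those of day 0. Day 3 had 88.3, 92.6 and 97.3 CPM and day 4 had 88.8, 57.6 and 57.6 CPM, and these 2 days overlapped each other and lay below every library of days 1 and 2. The log2 fold change was 2.21 ± 0.17 (SE) from day 0 to day 1 (adjusted p = 5.8e-09, edgeR quasi-likelihood test), and Otx2 fell by 0.99 ± 0.16 on the log2 scale from day 2 to day 4 (adjusted p = 5.67e-05, edgeR). On day 4 it stood at 50.4% of its highest mean of 135 ± 18.7 CPM (SD, n = 3).

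Fgf5 was nearly silent at the start, with 7, 3 and 1 reads in the 3 day 0 libraries of TX1072, or 0.189, 0.114 and 0.0450 CPM. It reached 21.5, 16.3 and 12.8 CPM on day 1 and 57.3, 40.2 and 37.3 CPM on day 2. Days 3 and 4 had 114, 96.7 and 75 CPM and 141, 131 and 135 CPM. No 2 days overlapped, and each mean was above the one before. The log2 fold change was 7.00 ± 0.35 from day 0 to day 1 and 10.01 ± 0.34 from day 0 to day 4, and both rest on the few day 0 reads (adjusted p = 3.07e-11 and 6.79e-14, edgeR). Between days 2 and 4 Fgf5 rose by 1.59 ± 0.19 on the log2 scale (adjusted p = 2.08e-06, edgeR). The last step, from day 3 to day 4, had a log2 fold change of 0.51 ± 0.19 and missed the threshold (adjusted p = 0.0526, edgeR), and it passed with the replicate number as a block (0.54, adjusted p = 0.0021), with DESeq2 (adjusted p = 0.0428) and with no filter on low counts (adjusted p = 0.0026). A transient peak was therefore not seen for Fgf5 within 4 days.

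Pou3f1 had its highest levels on days 2 and 3. Its libraries had 9.52, 11.5 and 14.5 CPM on day 0, 32.6, 40.6 and 31.2 CPM on day 1 and 94.4, 69.4 and 73.7 CPM on day 2. Day 3 had 80.9, 99.6 and 82.4 CPM and day 4 had 41.3, 49.9 and 59.8 CPM. Days 2 and 3 overlapped and lay above all other days. Pou3f1 rose by 1.56 ± 0.18 and then by 1.19 ± 0.17 on the log2 scale over the first 2 steps (adjusted p = 8.8e-07 and 2.0e-05, edgeR), and fell by 0.80 ± 0.17 from day 3 to day 4 (adjusted p = 0.0017, edgeR).

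Sox3 was the lowest of the 6 genes on days 1, 2, 3 and 4 in TX1072 when levels were divided by exon length. It had 1.49, 1.10 and 2.16 CPM on day 0, 3.44, 4.15 and 3.28 CPM on day 1 and 7.27, 4.68 and 6.54 CPM on day 2. Days 3 and 4 had 7.82, 9.67 and 7.84 CPM and 6.46, 7.82 and 8.28 CPM. All libraries of days 1 to 4 were above those of day 0, and days 3 and 4 overlapped. Sox3 rose by 1.21 ± 0.23 on the log2 scale on the first day and by 0.76 ± 0.21 on the second (adjusted p = 0.00032 and 0.0078, edgeR), and the second step did not pass without replicate 1 or 3 (0.59 and 0.64, adjusted p = 0.117 and 0.0998). Its day 4 mean was still 89.0% of the highest.

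The head-to-head pair Zic2 and Zic5 was already expressed on day 0. Zic2 had 20.7, 35.7 and 30.2 CPM on day 0, 21.7, 21.1 and 16.7 CPM on day 1, 61.9, 45.3 and 53.2 CPM on day 2, 49.0, 63.5 and 47.8 CPM on day 3 and 35.9, 27.6 and 23.5 CPM on day 4. Zic5 had 22.2, 30.9 and 39.1 CPM on day 0, 28.4, 22.8 and 26.7 CPM on day 1, 57.6, 41.6 and 54.9 CPM on day 2, 35.1, 55.2 and 39.1 CPM on day 3 and 26.4, 17.1 and 23.0 CPM on day 4. Both had their highest means on days 2 and 3 and were back in or below their day 0 range on day 4, apart from 1 Zic2 library marginally above it. Zic2 fell by 0.54 ± 0.19 on the log2 scale from day 0 to day 1 (adjusted p = 0.030, edgeR), which did not pass without replicate 2 or 3 (adjusted p = 0.153 and 0.268), and then rose by 1.43 ± 0.20 (adjusted p = 1.3e-05, edgeR). Zic5 rose by 0.98 ± 0.21 from day 1 to day 2 (adjusted p = 0.00095, edgeR). They fell by 0.88 ± 0.19 and 1.21 ± 0.21 (adjusted p = 0.00094 and 0.00010, edgeR) between days 2 and 4. The comparison of day 4 with day 0 gave 0.01 ± 0.19 for Zic2 and -0.47 ± 0.21 for Zic5, neither past the threshold (adjusted p = 0.97 and 0.062, edgeR). Zic5 passed with no filter on low counts (-0.45, adjusted p = 0.0062) or without replicate 1 (-0.80, adjusted p = 0.0059).

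**Figure D1:**
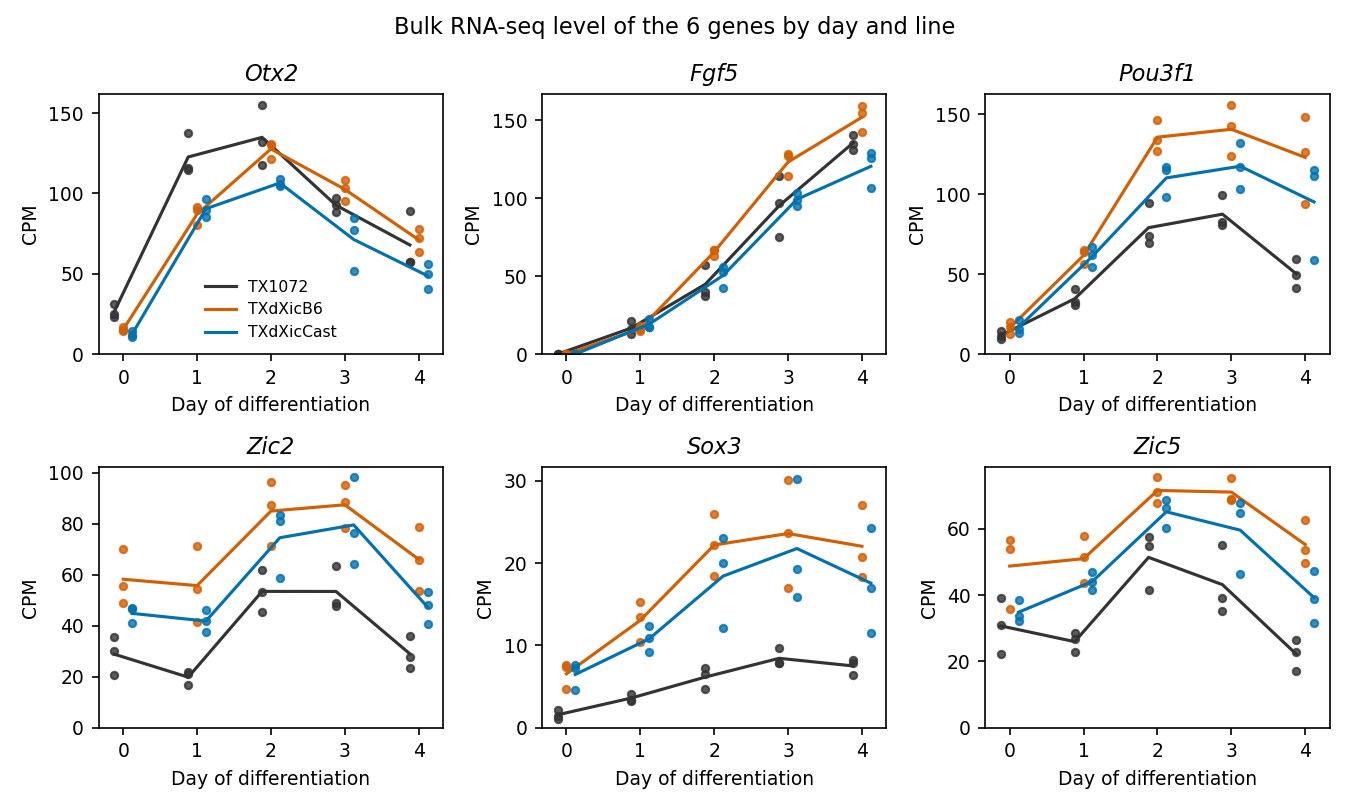
Levels of the 6 genes in CPM (vertical axes, linear, 1 panel per gene) by day of differentiation in TX1072, TXdXicB6 and TXdXicCast, where points are libraries and lines join the means of 3. Otx2 is highest on day 2 in all 3 lines, with means of 135, 128 and 107 CPM, and Fgf5 is highest on day 4, with means of 135, 152 and 120 CPM.

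Per kilobase of exon, the order of the genes changed with time. On day 2 in TX1072 the mean level was 32.0 ± 4.44 CPM per kb for Otx2 (SD, n = 3), 20.6 ± 3.47 for Pou3f1, 18.6 ± 2.89 for Zic2, 18 ± 4.32 for Fgf5, 10.5 ± 1.75 for Zic5 and 2.99 ± 0.646 for Sox3. Pou3f1, Zic2 and Fgf5 did not differ beyond their spread. On day 4 Fgf5 was highest at 54.1 ± 2.00 CPM per kb, ahead of Otx2 at 16.1 ± 4.27, Pou3f1 at 13.1 ± 2.40, Zic2 at 10.1 ± 2.20, Zic5 at 4.53 ± 0.960 and Sox3 at 3.64 ± 0.459. By mean ± SD, the spreads of Otx2, Pou3f1 and Zic2 overlapped each other on that day, and so did those of Zic5 and Sox3.

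Likeness was taken as the mean of 2 Pearson r of log2 CPM, over the 15 TX1072 and the 30 deletion clone libraries (13827 genes). The most alike genes outside the set were Wt1 (0.97) and Myrf (0.97) for Otx2, and Car4 (0.99) and Mapk4 (0.99) for Fgf5. For Pou3f1 they were Pcdh1 (0.98) and Pim2 (0.97), and for Sox3 Phlda2 (0.95) and Spint2 (0.94). The likeness was lower for Zic5, with Ptch1 (0.87) and Gpr155 (0.86), and for Zic2, with Adgrl1 (0.84) and Zfp36l2 (0.84). Within the set, Pou3f1 and Sox3 had r = 0.94 in both tables and Zic2 and Zic5 had 0.82 in TX1072 and 0.86 in the deletion clones, whereas Fgf5 and Zic5 had 0.09 and 0.50. The libraries share lines, days and kits, so these values are descriptions.

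Other genes of the formative network were counted beside the 6. Of 14 other formative genes, 11 rose and 1 fell from day 0 to day 1 in TX1072 (23.5% and 23.4% of all genes). The median log2 fold change was 2.66 for the 14, -0.01 for all genes and 1.39 for the 6 genes. Etv4, an ETS factor downstream of FGF signaling, rose by 7.24 ± 0.29 on the log2 scale, and the secreted ligand Fgf15 by 4.67 ± 0.30 (adjusted p = 2.41e-12 and 6.03e-10, edgeR). Over the next day 7 of the 14 rose and 5 fell (20.3% and 18.9% of all genes), where 0 of the 6 fell. From day 2 to day 3, 1 rose and 7 fell (13.8% and 12.9% of all genes). By day 4, 11 of the 14 had fallen from day 2 and 1 had risen (23.5% and 26.3% of all genes). The median was -1.26, against -0.77 for the 6 genes and 0.00 for all genes. The de novo DNA methyltransferase gene Dnmt3a fell by 3.13 ± 0.10 and Lef1, a nuclear effector of WNT signaling, by 2.82 ± 0.18 (adjusted p = 5.81e-13 and 7.31e-10, edgeR), and Tead2 rose by 0.85 ± 0.15 (adjusted p = 0.000145, edgeR).

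Naive pluripotency genes went the other way at the start. Of 9 naive genes, 8 fell and 1 rose from day 0 to day 1 (23.4% and 23.5% of all genes). Their median was -2.28. Prdm14 fell by 3.71 ± 0.16 and Tfcp2l1 by 2.78 ± 0.14 on the log2 scale, while Nr0b1 rose by 1.26 ± 0.14 (adjusted p = 6.07e-12, 4.27e-11 and 5.83e-07, edgeR). By day 4 all 9 were below day 0, with a median of -4.05, where 29.4% of all genes fell.

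Relatives of the 6 genes and the receptors of FGF5 did not share one course. Of 10 family relatives, 7 were tested in TX1072. Between days 2 and 4 the ligand gene Fgf8 rose by 5.89 ± 0.55 on the log2 scale, while Fgf4 fell by 3.60 ± 0.15 and Sox2 by 1.57 ± 0.22 (adjusted p = 7.95e-08, 4.83e-12 and 9.8e-06, edgeR). Of the 4 FGF receptor genes, Fgfr3 and Fgfr1 rose by 1.34 ± 0.22 and 0.55 ± 0.16 over the same days, and Fgfr4 and Fgfr2 fell by 2.17 ± 0.33 and 0.49 ± 0.15 (adjusted p = 5.14e-05, 0.00724, 2.37e-05 and 0.0141, edgeR). Over these days 26.3% of all genes rose and 23.5% fell.

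Markers of other cell types were measured beside the fall of the formative genes, since in bulk RNA fewer cells of a type and less RNA per cell cannot be told apart. From day 2 to day 4 in TX1072, 26.3% of all genes rose and 23.5% fell. In TX1072, 5 of 5 tested primitive streak and mesoderm markers rose from day 2 to day 4, and their summed level went from 9.76 to 229 CPM (152 to 346 CPM in the 3 libraries), led by T with 117 CPM. All 4 tested trophoblast markers rose, from a sum of 50.5 to 936 CPM, of which Krt8, also a keratin of other epithelia, held 897 CPM. Endoderm markers rose in 5 of 6 cases, from 10.3 to 45.5 CPM, with Dab2 at 25.4 CPM. Of 4 tested neural markers 2 rose and 1 fell, and the sum went from 49.8 to 185 CPM, led by Nes with 125 CPM. Of 8 pluripotency markers 5 fell and 1 rose, and the sum dropped from 2754 to 2124 CPM, with Tdgf1 at 743 CPM. Of 4 fibroblast markers Col1a1, Col1a2 and Postn rose and Thy1 fell, and the sum on day 4 was 12.1 CPM. Of 4 two-cell-like markers 1 rose, close to the share of all genes, and the sum went from 1.03 to 2.08 CPM. None of these markers was at 0 in all TX1072 libraries of day 4. The part of these markers in the fall of Otx2, Pou3f1, Zic2 and Zic5 was not tested.

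The same question was asked in the deletion clones. TXdXicB6 had 4 genes that rose and 0 that fell from day 0 to day 1, where 23.9% of 19885 genes rose and 21.8% fell, and 6 that rose from day 1 to day 2 (16.0% and 16.8% of all genes). Of these 6, 4 did not pass in edgeR when 1 replicate was left out, Otx2 without replicate 2 (adjusted p = 0.0873), Zic2 and Zic5 without replicate 1 (0.0716 and 0.133) and Sox3 without replicate 2 or 3 (0.217 and 0.0573). It then had 1 that rose and 0 that fell to day 3 (13.3% and 12.2%) and 0 that rose and 1 that fell to day 4 (8.43% and 7.49%), and the last of these counts was 4 in all with the replicate block and 0 without replicate 2. Between days 2 and 4, 1 rose and 2 fell (23.9% and 22.9%), and between days 0 and 4, 4 rose and 0 fell (30.0% and 29.5%). In TXdXicCast the counts over the 4 steps were 4 up and 0 down (30.6% and 28.3%), 5 up and 0 down (17.6% and 18.3%), 1 up and 1 down (14.4% and 13.0%) and 0 up and 3 down (10.2% and 8.89%). Between days 2 and 4 they were 1 up and 3 down (25.4% and 24.5%) and between days 0 and 4 they were 4 up and 0 down (36.2% and 33.6%). Sox3 did not pass in TXdXicCast over the first step without replicate 1 or 2 (adjusted p = 0.0659 and 0.178, edgeR), nor over the next without replicate 1, 2 or 3 (0.0541, 0.0736 and 0.12). Over the last step Otx2 did not pass without replicate 1 or 2 (adjusted p = 0.0669 and 0.151, edgeR), nor Zic2 and Zic5 without replicate 1 (0.0955 and 0.096). The day 0 libraries of TXdXicCast are the degraded ones.

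Otx2 in TXdXicB6 had 14.3, 15.4 and 16.7 CPM on day 0, 91.4, 80.2 and 89.8 CPM on day 1, 131, 130 and 122 CPM on day 2, 104, 108 and 95.6 CPM on day 3 and 77.6, 72.5 and 63.5 CPM on day 4. In TXdXicCast it had 11.9, 11 and 14.6 CPM, 96.7, 85.3 and 89.5 CPM, 109, 104 and 106 CPM, 84.6, 77.6 and 52.0 CPM, and 56.0, 49.6 and 40.8 CPM on the same days. In both clones the day 2 libraries lay above those of every other day. Otx2 fell by 0.84 ± 0.13 on the log2 scale from day 2 to day 4 in TXdXicB6 and by 1.13 ± 0.13 in TXdXicCast (adjusted p = 8.7e-06 and 8.79e-08, edgeR), and ended at 55.8% and 45.8% of its highest mean. From day 2 to day 4, 23.9% of all genes rose and 22.9% fell in TXdXicB6, and 25.4% and 24.5% in TXdXicCast. Over the same days 4 of 5 trophoblast markers rose in each clone. Their sum went from 43.3 to 380 CPM in TXdXicB6 and from 48.9 to 939 CPM in TXdXicCast. Of 5 tested primitive streak and mesoderm markers 3 rose in TXdXicB6 (18.7 to 98.0 CPM) and 4 in TXdXicCast (16.2 to 110 CPM), led by Eomes, with Mesp1 at 0 in TXdXicB6 on day 4. Endoderm markers rose in 3 and 4 of 6 cases and 1 fell in TXdXicB6, and of 8 pluripotency markers 5 and 6 fell and 1 rose in each clone. Of 5 tested neural markers 2 rose in each clone and 1 and 3 fell, and of 4 fibroblast markers 1 and 3 rose and 1 fell in each. Of 4 two-cell-like markers 2 rose in TXdXicB6 and 0 in TXdXicCast. The part of these markers in the fall of Otx2 in the clones was not tested.

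Fgf5 had its highest mean on day 4 in both clones. TXdXicB6 had 6, 2 and 4 reads and TXdXicCast 2, 4 and 10 reads on day 0, and on day 4 the levels were 159, 154 and 142 CPM and 129, 106 and 126 CPM. Over the last 2 days Fgf5 rose by 1.21 ± 0.12 in TXdXicB6 and 1.25 ± 0.12 in TXdXicCast on the log2 scale (adjusted p = 2.72e-09 and 1.18e-09, edgeR). The step from day 3 to day 4 had adjusted p = 0.0719 and 0.0903 (edgeR), and 0.017 and 0.028 with the replicate block.

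Pou3f1 did not pass the threshold between days 2 and 4 in either clone (adjusted p = 0.59 and 0.39, edgeR). Its day 3 libraries had 156, 143 and 124 CPM in TXdXicB6 and 132, 117 and 104 CPM in TXdXicCast, and its day 4 libraries had 148, 127 and 94.2 CPM and 115, 111 and 59.1 CPM. Days 3 and 4 overlapped in both clones, and the day 4 mean was 87.5% and 81.0% of the highest, beside 57.4% in TX1072, a difference between tables that was not tested. Sox3 had its highest mean on day 3, with 23.6 ± 6.61 CPM and 21.8 ± 7.51 CPM, and 8.44 ± 1.07 CPM in TX1072 (SD, n = 3). Its day 2 means were 22.2 and 18.4 CPM in the clones, and the day 2 and day 3 libraries overlapped in both. Zic2 and Zic5 went from day 2 means of 84.9 and 71.5 CPM to day 4 means of 66.0 and 55.2 CPM in TXdXicB6, and from 74.5 and 65.1 CPM to 47.3 and 39.2 CPM in TXdXicCast. In TXdXicCast both fell from day 2 to day 4, by 0.66 ± 0.18 and 0.73 ± 0.16 on the log2 scale (adjusted p = 0.0039 and 0.00028, edgeR). In TXdXicB6 Zic5 fell by 0.37 ± 0.15 (adjusted p = 0.048, edgeR), a call that was lost with DESeq2 and without any 1 replicate, and Zic2 passed only with the replicate block (-0.37, adjusted p = 0.014).

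The 2 clones were also compared with each other on each day, which asks whether the X chromosome that carries the deletion goes with a different formative program. On day 4 the log2 fold change of TXdXicCast over TXdXicB6 was below 0 for all 6 genes, from -0.54 to -0.32, and 1 of 6 passed the threshold, where 5.86% of all genes did. This was Otx2, with -0.54 ± 0.13 (adjusted p = 0.0127, edgeR), whose libraries did not overlap, and which did not pass without replicate 1 or 2 (adjusted p = 0.0855 and 0.189). Fgf5 had -0.33 ± 0.11 and Zic5 -0.50 ± 0.15 (adjusted p = 0.0851 and 0.055, edgeR). Zic2, Pou3f1 and Sox3 had -0.48 ± 0.18, -0.37 ± 0.20 and -0.32 ± 0.27 (adjusted p = 0.13, 0.31 and 0.58, edgeR). With the replicate number as a block 4 of 6 passed, namely Otx2 (-0.55), Fgf5 (-0.34), Zic2 (-0.48) and Zic5 (-0.50), with adjusted p = 0.0047, 0.037, 0.044 and 0.026, while the number of all genes that passed went from 1165 to 1772. On day 3 Otx2 had -0.52 ± 0.13 (adjusted p = 0.0458, edgeR), as 1 of 6 where 1.26% of all genes passed, and it did not pass when any 1 replicate was left out. The summed trophoblast markers then stood at 235 CPM in TXdXicCast (141 to 386 CPM) and 115 CPM in TXdXicB6 (105 to 129 CPM). Of 5 trophoblast markers 1 was higher and 0 lower, and their part in the lower Otx2 was not tested.

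On the earlier days the clones were compared in the same way. On day 0 Zic5 had -0.48 ± 0.16 (adjusted p = 0.029, edgeR), as 1 of 6 where 19.8% of all genes passed, with the degraded TXdXicCast samples on 1 side, and it did not pass without replicate 2 or 3 (adjusted p = 0.107 and 0.324). On day 1 and day 2, 0 of 6 passed with edgeR, and 0 with DESeq2, where 0.402% and 0.372% of all genes passed, and 1 of 6 had an unadjusted p under 0.05 on each day. The change from day 2 to day 4 itself did not differ between the clones beyond error for any of the 6 genes, with 0 past the threshold by edgeR and by DESeq2, 0 at an unadjusted p under 0.05, and 0.241% of all genes past it. These differences of change ran from -0.36 ± 0.22 for Zic5 (adjusted p = 0.73, edgeR) to 0.04 ± 0.16 for Fgf5, with -0.28 ± 0.19 for Otx2. Each genotype is 1 clone, so that clone and deletion cannot be told apart.

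Other lists were also counted between the clones on day 4, where 5.86% of all genes passed with all 3 replicates. No list was tested as a set. Of the 14 other formative genes, 6 were lower in TXdXicCast and none higher, with a median of -0.54 beside -0.43 for the 6 genes and -0.01 for all genes. Lef1 had -1.36 ± 0.32 and Fgf15 -1.16 ± 0.24 (adjusted p = 0.00901 and 0.00338, edgeR). Of the 9 naive genes 2 were higher, Tbx3 by 1.03 ± 0.29 and Tfcp2l1 by 0.54 ± 0.16 (adjusted p = 0.0343 and 0.0364, edgeR), and none was lower, while the median of the 9 was -0.10. The summed trophoblast markers stood at 939 CPM in TXdXicCast (747 to 1265 CPM) and 380 CPM in TXdXicB6 (356 to 420 CPM), led by Krt8 with 888 and 341 CPM, and 1 of 5 passed. Of 6 endoderm markers 2 were higher in TXdXicCast, Gata6 and Dab2, with sums of 54.2 and 38.7 CPM in TXdXicCast and TXdXicB6, led by Dab2 with 40.3 and 25.5 CPM. Of 4 fibroblast markers 2 were higher, Col1a1 and Col1a2, with sums of 24.2 and 17.5 CPM. Of 8 pluripotency markers 2 were lower, Pou5f1 and Tdgf1, with sums of 1951 and 2430 CPM, led by Tdgf1 with 576 and 747 CPM. The primitive streak and mesoderm markers had 110 and 98.0 CPM and the neural markers 143 and 122 CPM, and 0 of 5 passed in each list. The part of these markers in the lower level of Otx2 was not tested.

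Reads that cover a SNP between B6 and Cast were assigned to alleles by the authors, which separates the 2 copies of each gene. Only Sox3 of the 6 genes is X-linked, and an X chromosome that lacks the Xic cannot express Xist, the RNA that silences the X in cis. In TXdXicB6, 50.0%, 71.7% and 55.3% of the Sox3 allele reads of the day 0 libraries were from B6, and 65.4%, 45.8% and 72.4% on day 2. On day 4 the values were 86.3%, 89.2% and 89.7%. In TXdXicCast they were 30.0%, 46.3% and 45.7% on day 0, 34.5%, 45.9% and 27.7% on day 2, and 16.5%, 20.0% and 17.1% on day 4. Sox3 thus came mostly from the chromosome with the deletion at the end in both clones, and the clones did not overlap on days 3 and 4. The log2 ratio of B6 to Cast reads in TXdXicCast minus that in TXdXicB6 was -1.79 ± 0.28 on day 2, -3.77 ± 0.26 on day 3 and -5.11 ± 0.27 on day 4 (adjusted p = 1.2e-06, 3.86e-20 and 2.15e-26, edgeR). Among 531 X-linked genes 46.5%, 71.8% and 78.7% passed on these days. On days 0 and 1 Sox3 did not pass (adjusted p = 0.28 and 1.0, edgeR), and 4.33% and 4.52% of X-linked genes did. In TX1072, where either X can be silenced, Sox3 had 46.2%, 18.2% and 24.1% B6 on day 4, from 22 to 29 reads per library. Sox3 carries 1 SNP in its exon, and its allele reads numbered between 2 and 310 per library. In TXdXicB6, 5.21% of all counts were assigned to an allele in replicate 1 of day 0 and 9.57% in replicate 2 of day 2. The median over the 30 clone libraries was 31.3%.

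The summed level of Sox3 in the clones on day 4, 22.0 ± 4.54 CPM in TXdXicB6 and 17.6 ± 6.34 CPM in TXdXicCast (SD, n = 3), had overlapping libraries, while the shares of its alleles were at opposite ends.

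The other 5 genes are autosomal. Otx2 was from the Cast allele for the most part, with a median of 25.4% B6 over the 45 libraries (15.3% to 38.6%). Its B6 share was lower on day 0 than on day 1 in TX1072, with 17.8%, 19.5% and 20.1% against 29.4%, 28.0% and 29.3%, and in TXdXicCast, with 25.0%, 26.5% and 30.4% on day 1, both without overlap with day 0. In TXdXicB6 the day 1 values of 25.6%, 31.3% and 26.2% lay within the range of day 0. The clones differed in its ratio by -1.19 ± 0.29 on day 0 and -0.48 ± 0.13 on day 4 (adjusted p = 0.0118 and 0.0165, edgeR), where 1.65% and 1.43% of autosomal genes passed. On day 0 TXdXicB6 had 22.7%, 38.6% and 21.8% B6 from 22, 197 and 124 reads and TXdXicCast 18.1%, 18.4% and 15.3%, and without replicate 2 the difference was -0.56 (adjusted p = 0.78, edgeR). On day 4 the values were 28.7%, 31.8% and 34.1% in TXdXicB6 and 24.6%, 24.0% and 24.4% in TXdXicCast, without overlap, and the difference did not pass without replicate 2 or 3 (adjusted p = 0.0846 and 0.0643, edgeR).

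Pou3f1 changed its allelic balance as it rose, in all 3 lines. In TX1072 its libraries had 18.2%, 17.6% and 23.8% B6 on day 0, 34.1%, 30.3% and 24.0% on day 1 and 45.4%, 48.0% and 49.4% on day 2. TXdXicB6 had 26.7%, 22.2% and 23.4% on day 1 and 49.3%, 54.1% and 52.8% on day 2, and TXdXicCast 27.2%, 23.7% and 24.9% on day 1 and 50.6%, 42.9% and 46.4% on day 2. All 18 libraries of days 0 and 1 had 9.52% to 34.1% B6 and all 27 libraries of days 2 to 4 had 42.6% to 54.1%, so that the ranges did not overlap. The mean rose from day 1 to day 2 by 18.1, 27.9 and 21.3 percentage points in TX1072, TXdXicB6 and TXdXicCast. Among 8955 autosomal genes with at least 20 allele reads in each of the 18 libraries, 0.447% had 3 changes of the same sign at least as large as 18.1 points, and the median absolute change was 2.58, 2.57 and 2.36 points. On day 1 most Pou3f1 allele reads were thus from Cast, and on day 2 the alleles were close to equal. The day 0 values rest on 7 to 89 reads per library.

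Fgf5 shifted less and the other way. Its day 1 libraries had 56.8%, 46.2% and 55.5% B6 in TX1072, 50.7%, 51.6% and 56.9% in TXdXicB6 and 49.8%, 54.0% and 52.7% in TXdXicCast. On day 3 they had 38.7%, 41.1% and 38.6%, 39.3%, 39.0% and 38.1%, and 40.4%, 40.3% and 34.7%. No library of day 3 reached the lowest of day 1. On day 0 Fgf5 had at most 2 allele reads per library, which give no ratio. Zic2 had 5 to 288 allele reads per library. In TXdXicB6 it had 50.0% to 53.8% B6 on day 0 and 39.0% to 47.9% on day 3, and in TXdXicCast 46.5% to 56.6% and 53.0% to 61.8%. The clones did not overlap on day 3, and the difference of 0.53 ± 0.25 in the log2 ratio did not pass (adjusted p = 0.476, edgeR). Zic5 had 1 to 35 allele reads per library and ran from 0% to 100% B6 between libraries, too few reads to show a shift.

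**Figure D2:**
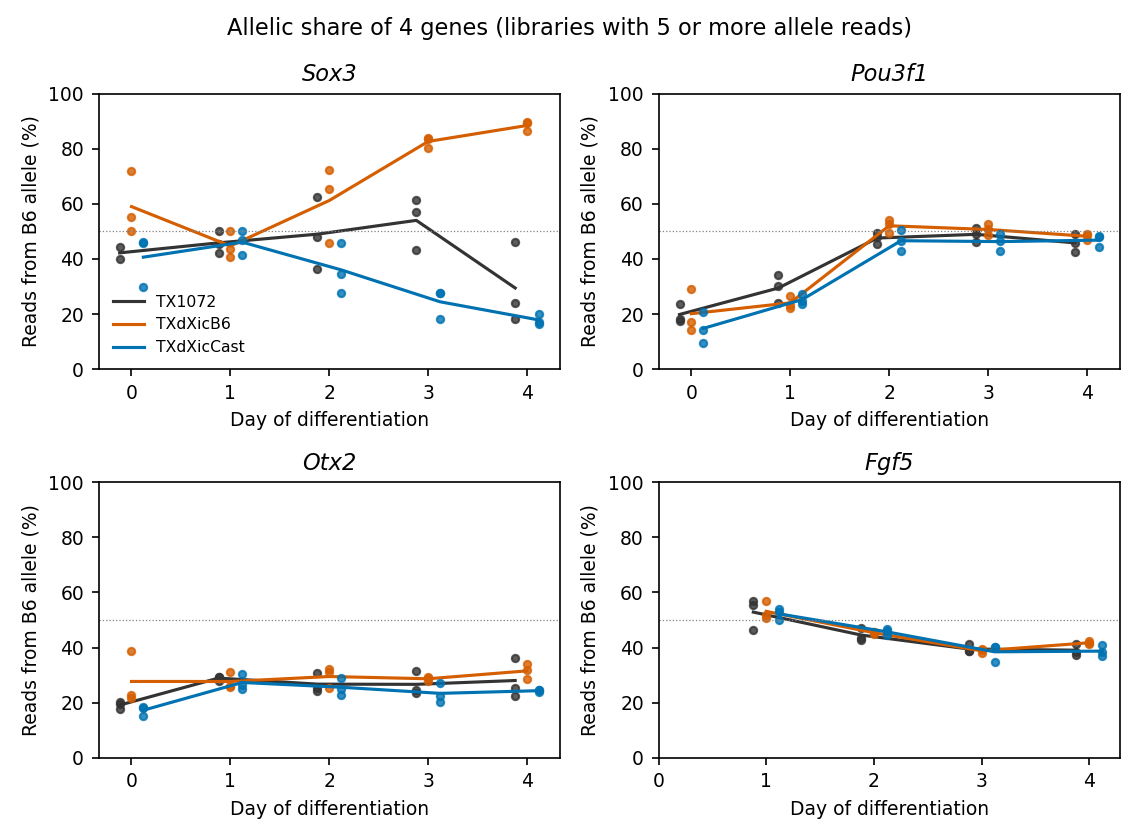
Share of allele-assigned reads from B6 in percent (vertical axes) by day for Sox3, Pou3f1, Otx2 and Fgf5 in the 3 lines, where points are libraries with at least 5 allele reads and the dotted line marks 50%. Sox3 ends at 86.3% to 89.7% in TXdXicB6 and 16.5% to 20.0% in TXdXicCast, and Pou3f1 moves from at most 34.1% on days 0 and 1 to at least 42.6% on days 2 to 4 in every line.

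Single cells show in how many cells a gene was found. This share depends on the number of expressing cells and on the RNA per cell, which were not told apart. With 1 culture per day there is no test between days, and the intervals given (exact Poisson for levels, Clopper-Pearson for shares, 95%) cover counting error only. Levels in cells are counts-per-million (CPM) of the UMIs summed over the cells of a day. Otx2 had 30.3 CPM on day 0 (28.6 to 32.1), 146 on day 1 (142 to 149), 149 on day 2 (146 to 153), 98.9 on day 3 (95.5 to 102) and 103 on day 4 (99.8 to 106). The share of cells with at least 1 Otx2 UMI was 38.6% on day 0, 86.2% on day 1, 80.9% on day 2, 66.1% on day 3 and 65.4% on day 4. Depth differed between days, and with every cell thinned to 40000 UMIs, a number that all 1472 cells exceed, the shares were 29.6%, 77.5%, 73.6%, 59.5% and 53.7%. Most cells thus had an Otx2 UMI after 1 day, and a smaller share had one on days 3 and 4. The tenth of cells with the most Otx2 held 34.5% of its UMIs on day 1 and 53.3% on day 4, where 1 cell reached 287 UMIs.

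Fgf5 was found in more cells with time, while its level also rose. It had 7 UMIs in 3 of 277 cells on day 0, a level of 0.179 CPM (0.0719 to 0.368), then 34.3 on day 1, 84.7 on day 2, 172 on day 3 and 315 on day 4 (309 to 320). The share of cells with a UMI went from 1.08% (0.224 to 3.13%) over 43.4%, 57.5% and 73.5% to 88.2% (83.8 to 91.8%), and after thinning from 31.4% on day 1 to 77.9% on day 4. The median depth was 138565 UMIs on day 0 against 171158 on day 4. Of the day 0 counts, 1 capture column held 6 of the 7 UMIs and 2 of the 3 cells, and without that column the day 0 level was 0.0275 CPM. The median cell had 0 Fgf5 UMIs on day 1, 1 on day 2, 10 on day 3 and 38 on day 4.

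Pou3f1 had 15.1, 56.3, 105, 122 and 66.5 CPM in cells on days 0 to 4, and Zic5 had 26.0, 35.6, 63.0, 44.8 and 26.5. Pou3f1 was found in 42.2%, 78.2%, 86.2%, 81.7% and 75.4% of cells and Zic5 in 62.1%, 66.2%, 76.8%, 62.3% and 50.7%. Both were thus highest in the middle of the course, with Zic5 in fewer cells on day 4 than on day 0. Sox3 had 3.42, 13.8, 12, 24.6 and 17.3 CPM and was found in 12.6%, 32.9%, 29.6%, 37.7% and 35.3% of cells. Zic2 stood at 1.71 CPM on day 0, its lowest level, to 2.99 CPM on day 3, its highest, in 9.0% to 14% of cells.

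**Figure D3:**
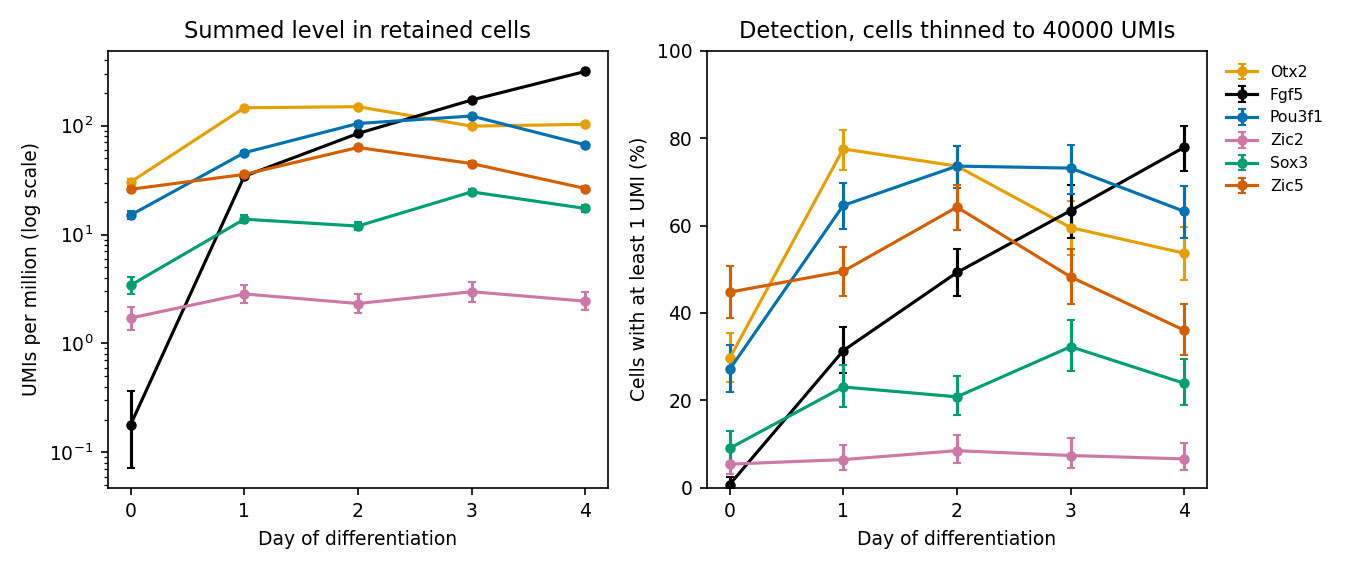
Levels of the 6 genes in retained single cells by day, as CPM of UMIs on a log axis with exact Poisson 95% intervals (left) and as the percent of cells with at least 1 UMI after thinning to 40000 UMIs with Clopper-Pearson 95% intervals (right). Fgf5 climbs from 0.179 to 315 CPM, Otx2 is highest on days 1 and 2, and Zic2 stays between 1.71 and 2.99.

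The next question was whether the 6 genes were found in the same cells. After thinning, the mean number of the 6 genes with a UMI was 1.17 per cell on day 0, 2.53 on day 1, 2.90 on day 2, 2.84 on day 3 and 2.61 on day 4 (1.66, 3.19, 3.44, 3.34 and 3.29 without thinning). None of the 6 was found in 69 of 277 thinned cells on day 0 and in 12 of 325, 15 of 341, 20 of 257 and 21 of 272 cells on the later days. All 6 together were found in 0, 0, 2, 5 and 2 thinned cells. The gene found in the fewest thinned cells was Fgf5 on day 0, with 2 cells, and Zic2 on the later days, with 21, 29, 19 and 18 cells.

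**Figure D4:**
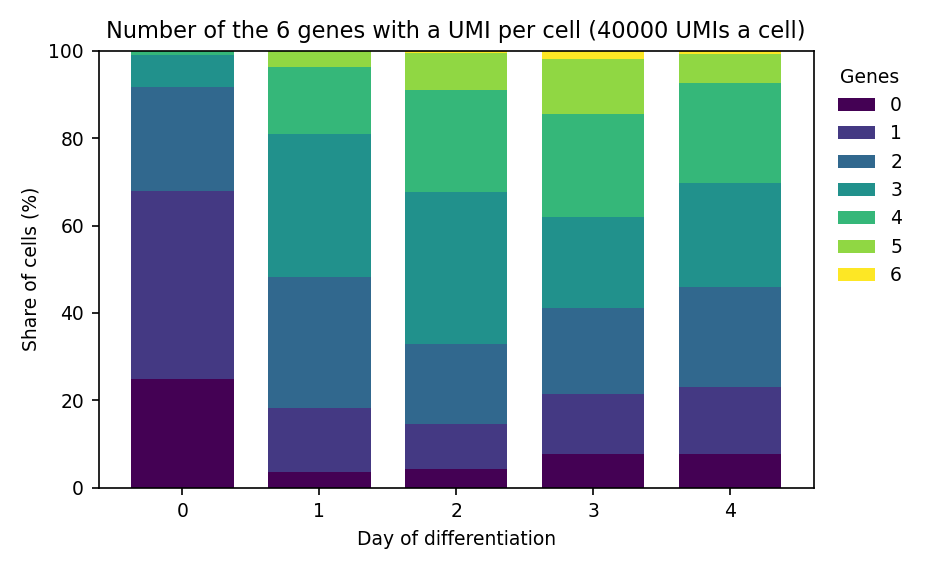
Percent of retained cells (vertical axis, stacked bars adding to 100%) by the number of the 6 genes with at least 1 UMI after thinning to 40000 UMIs, for each day. The mean number goes from 1.17 on day 0 to 2.90 on day 2 and 2.61 on day 4.

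Co-expression within a day was measured for each pair. Spearman's rho was computed over cells for each of the 15 pairs on each of the 5 days, as a description, since all cells of a day share their culture and its libraries. Of the 15 pairs, 10, 13, 14, 15 and 14 had a rho above 0 on days 0 to 4, with a median of 0.035, 0.065, 0.141, 0.223 and 0.199. After thinning the medians were 0.029, 0.050, 0.093, 0.179 and 0.164, and within the single capture columns of each day, without thinning, they were 0.014, 0.062, 0.146, 0.235 and 0.207. The medians were highest on day 3 and lower on day 4. For comparison, the thinned rho of Otx2 with all other detected genes had a 5th to 95th percentile range of -0.10 to 0.10 on day 0, -0.12 to 0.14 on day 3 and -0.17 to 0.16 on day 4, so that the spread over all genes was also wider on the later days.

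Fgf5 and Pou3f1 had a rho of 0.26, 0.31 and 0.38 on days 1, 2 and 3, over 325, 341 and 257 cells, the highest of the pairs without thinning. After thinning they had 0.17, 0.28 and 0.28, where Otx2 with Fgf5 was higher on day 1 (0.19) and Pou3f1 with Zic5 on day 3 (0.34). Over all capture sites Otx2 with Fgf5 was highest on days 1 and 2 (0.25 and 0.29). On day 3 both had a UMI in 66.5% of cells, where the product of their shares is 60.1%. On day 4 the highest values were those of Otx2 with Zic5 (0.43) and Otx2 with Fgf5 (0.42), over 272 cells, and thinned they were 0.30 and 0.41. Otx2 and Zic5 were found together in 43.0% of these cells, where the product of their shares is 33.2%. On day 0 Otx2 and Pou3f1 had -0.09 over 277 cells, the lowest value of that day.

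The same measure was taken with other lists on day 3, after thinning. Fgf5 had a median rho of 0.22 with 13 other formative genes and of -0.20 with 8 naive genes, and Pou3f1 had 0.15 and -0.20. Otx2 had 0.17 and -0.09, Zic5 0.15 and -0.09, and Sox3 0.13 and -0.07. Over all detected genes on that day the median rho was 0.02 for each of the 5, and single genes ran from the 5th to the 95th percentile between -0.13 and 0.16 for Fgf5 and between -0.12 and 0.15 for Pou3f1. The single naive genes ran from -0.33 to 0.09 for Fgf5 and from -0.39 to -0.06 for Pou3f1. On days 1, 2 and 4 the naive medians were -0.09, -0.05 and -0.12 for Fgf5 and -0.10, -0.10 and -0.06 for Pou3f1. They were -0.05, 0.03 and -0.08 for Otx2, 0.06, -0.06 and -0.04 for Zic5 and -0.04, -0.05 and -0.04 for Sox3. The medians with other formative genes on these days were 0.04, 0.13 and 0.11 for Fgf5 and 0.03, 0.16 and 0.14 for Pou3f1. Over all detected genes the 5th percentile on day 4 was -0.18 for Fgf5 and -0.10 for Pou3f1. Without thinning the naive median of Fgf5 was -0.20 on day 4 beside -0.21 on day 3, and that of Pou3f1 was -0.11 beside -0.20.

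**Figure D5:**
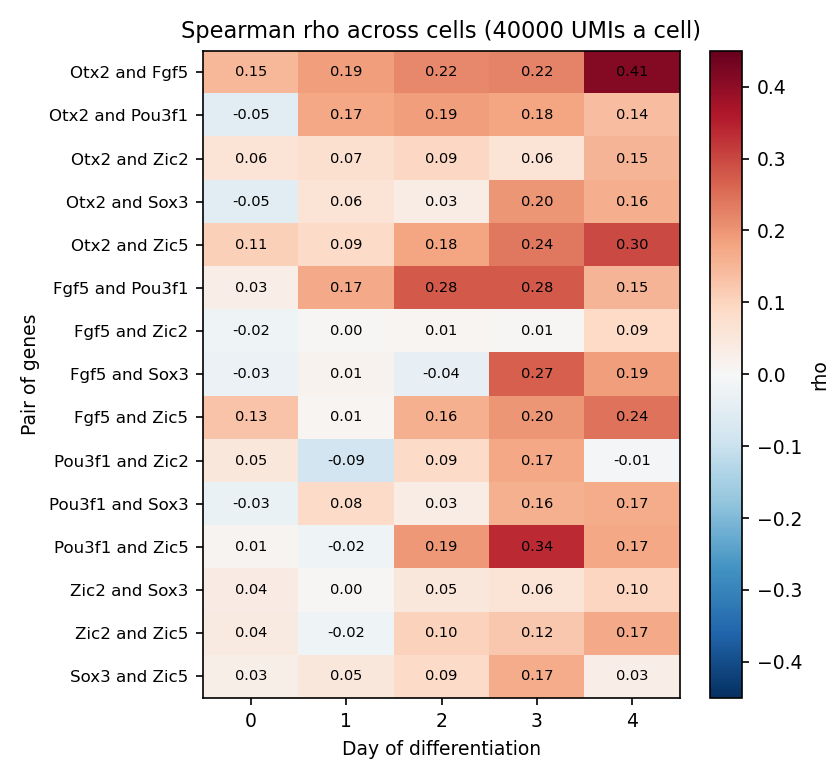
Spearman's rho over retained cells, thinned to 40000 UMIs, for the 15 pairs of the 6 genes (vertical axis) on days 0 to 4 (horizontal axis), as a colour scale with 0 in the middle. The median goes from 0.029 on day 0 to 0.179 on day 3, and Otx2 with Fgf5 reaches 0.41 on day 4.

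Molecules aligned only to exons (spliced) and molecules overlapping introns (unspliced) were counted apart by the authors. An exon-only molecule can also come from unspliced RNA, so the shares below are those of intron-overlapping molecules. These tables held 0 molecules for some genes on whole days on which the UMI table had counts, such as Zic5 on days 1 and 4, Zic2 on day 0 and Fgf5 on day 0, so shares are given for Otx2 and, from day 1, Fgf5. Otx2 was 1.82% unspliced on day 0 (22 unspliced and 1186 spliced molecules, 1.14 to 2.74%), 0.609% on day 1, 0.111% on day 2 (7 unspliced molecules, 0.0447 to 0.229%), 0.842% on day 3 and 1.71% on day 4 (1.36 to 2.12%). The interval of day 2 lay below those of the other 4 days. Fgf5 was 1.93% unspliced on day 1, 2.62% on day 2, 2.01% on day 3 and 2.36% on day 4, with overlapping intervals. Over all genes 10.7% to 13.3% of molecules were unspliced. The capture sites left out of the retained cells matter for Otx2 on day 4, where all 400 sites together gave 4.50%.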

How the data were processed

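Bulk and single-cell RNA-seq tables were analysed as deposited by the authors. The authors aligned reads with STAR 2.5.2b to mm10, assigned reads to the B6 or Cast allele at SNPs, and deposited whole-number counts per gene from featureCounts, in total and per allele. For single cells they deposited UMI counts per gene, with spliced and unspliced molecules apart. The 6 genes and all gene lists were chosen with earlier results of these data known. From each list, the 2 largest changes past the threshold in each direction could be named. For the fibroblast markers in TX1072 all were named.

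Counts were tested with edgeR 4.0.16 (quasi-likelihood, TMM factors, filterByExpr, group means of line and day, two-sided, Benjamini-Hochberg over all genes tested, threshold 0.05), with 1 fit for TX1072 and 1 for the deletion clones. SE is the absolute log2 fold change divided by the square root of F. CPM used TMM-scaled totals. Allelic ratios were tested in a fit with a term for each library. Retained cells are those of the study's published cell list, and doublets were not called again. Thinning drew 40000 UMIs from each cell (seed 7). Spike-in rows were left out. The edgeR test of total counts and a smaller version of the allelic fit were tried on simulated counts, and the single-cell computations were not. Replicates were differentiated on different days per the study's methods, so the number was taken to mark a shared day, and same-numbered libraries of a line deviated together (median correlation 0.24, 0.45 and 0.33 in TX1072, TXdXicB6 and TXdXicCast, against -0.12, -0.25 and -0.26 for other numbers). Between the clones the median was 0.21 for the same number (-0.42 to 0.73) and -0.14 for other numbers. The labels do not state a day shared across lines. Alternatives were DESeq2 1.42.0, other scalings, no filter, a replicate block and leaving out each replicate.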

Additional observations from a re-analysis of the deposited data

Results flagged for a closer look

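In the single cells, capture columns (10 per day, all from 1 culture) were compared for each gene and day, 30 groups in all, of which chance sets about 1 in 20 apart. In 3 of them 1 column stood apart from the others of its day. For Fgf5 on day 0, column 2 had 2.16 CPM where the others had 0 to 0.289, with 6 of the 7 UMIs of that day. For Pou3f1 on day 4, column 1 had 39.9 CPM where the others had 60.8 to 83.9. For Zic2 on day 1, column 8 had 7.33 CPM where the others had 0.547 to 3.85.

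The allelic ratio of 2 genes differed between the deletion clones by the test of the difference (edgeR, log2 ratio of B6 to Cast reads, TXdXicCast minus TXdXicB6). For the X-linked Sox3 the difference was -1.79 on day 2, -3.77 on day 3 and -5.11 on day 4 (adjusted p = 1.2e-06, 3.86e-20 and 2.15e-26). For the autosomal Otx2 it was -1.19 on day 0 and -0.48 on day 4 (adjusted p = 0.0118 and 0.0165), where 1.65% and 1.43% of autosomal genes passed. On day 0 the Otx2 difference was -0.56 without replicate 2 (adjusted p = 0.78). On day 4 it did not pass without replicate 2 or 3 (adjusted p = 0.0846 and 0.0643).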

How the results depend on the processing

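The number of the 6 genes past the threshold, the days of highest level and the cell measures stayed the same under 376 alternative computations and moved under 48, where the same means a count within 1.5 times the one reported, the same day, or an unspliced share within its 95% interval. The cause was not tested for any of them. For TXdXicCast against TXdXicB6 on day 4, the count of 1 became 3 with DESeq2, 3 with no filter on low counts and 4 with the replicate block, and 0 to 1 without a replicate. It was 0 to 1 on day 0 and 0 on day 3 without a replicate. From day 3 to day 4 in TXdXicB6, the count of 1 became 2 with DESeq2, 2 with no filter and 4 with the block, and 0 to 1 without a replicate. From day 2 to day 3 in TXdXicB6, the count of 1 became 2 with TMM factors from autosomal genes and 2 with the block, and 1 to 2 without a replicate. Leaving out a replicate gave 1 to 3 genes from day 2 to day 3 and 2 to 5 from day 3 to day 4 in TX1072, and 0 to 3 from day 3 to day 4 in TXdXicCast. For allelic ratios it gave 0 to 1 gene on day 0, 1 to 2 on day 3 and 1 to 2 on day 4. The replicate block changed the calls given beside the results, those of Otx2 from day 2 to day 3 and of Fgf5, Zic2 and Zic5 from day 3 to day 4 in TXdXicB6, and of Zic5 from day 0 to day 1 in TXdXicCast (0.34, adjusted p = 0.030, edgeR), and no other call of the 6 genes.

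Without a replicate, the day of the highest mean ran from 2 to 3 for Pou3f1 and Zic2 in TX1072, for Pou3f1, Zic2 and Zic5 in TXdXicB6 and for Sox3, Zic2 and Zic5 in TXdXicCast, and from 2 to 4 for Sox3 in TXdXicB6. With DESeq2 size factors it was 3 for Zic2 in TX1072. The days of Otx2 and Fgf5 did not move in any line. Zic2 from day 0 to day 4 in TX1072 changed from 0.01 to -0.00413 with TMM factors from autosomal genes and ran from -0.37 to 0.23 without a replicate. In cells, the day of highest Zic2 level was 3, and 1 over all capture sites, 2 after thinning and 1 to 3 without a column, and the day of its highest share was 4, and 2 over all sites and 2 after thinning. Unspliced shares on day 4 went over all sites to 4.50% for Otx2 and 2.64% for Fgf5.

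Over all genes, the counts past the threshold between the clones went from 80, 74, 251 and 48 (days 1, 2, 3 and the change from day 2 to day 4) to 147, 140, 477 and 188 with DESeq2 and to 198, 200, 575 and 246 with no filter. With the block they were 124 on day 2, 447 on day 3, 1772 on day 4 (from 1165) and 115 for the change. Without 1 replicate they were 2 to 24, 0 to 30, 10 to 43 and 0 to 5, and on day 4 342 to 424 and on day 0 791 to 2924 (from 3929). Within lines, the counts from day 2 to day 3 and from day 3 to day 4 went at the lowest from 5033 and 5251 to 2590 and 2636 in TX1072 (both without replicate 3), from 5069 and 3165 to 2069 and 800 in TXdXicB6 (both without replicate 2) and from 5437 and 3787 to 3148 and 1568 in TXdXicCast (without replicate 1 and 2), so the all-gene shares beside the results hold for 3 replicates only. For allelic ratios on day 0 the count over all genes, X-linked ones included, went from 265 to 121 without replicate 2 and 132 without replicate 3. Low counts limit what can be said of Fgf5 on day 0, the alleles of Zic5 and Sox3, and Zic2 in cells. Why Zic2 had few UMIs was not tested.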

Other observations

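The bulk replicate 1 libraries of TX1072 and the single cells came from the same populations, so that the 2 assays can be set side by side. UMI CPM of the cells over bulk CPM gave 0.963 to 1.30 for Otx2 over the 5 days, 1.00 to 1.28 for Zic5, 1.11 to 1.73 for Pou3f1, 0.944 to 2.24 for Fgf5 and 1.65 to 4.02 for Sox3. For Zic2 the ratio was 0.0376 to 0.131, below that of the other 5 genes on each day. Bulk CPM of Zic2 went from 21.7 on day 1 to 61.9 on day 2 in replicate 1, while its level in cells went from 2.85 (118 UMIs) to 2.33 (98 UMIs). The rise of Zic2 in bulk was thus not seen in the 3′ UMI counts.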
